A study of Saccharomyces cerevisiae with 18 samples.

Results

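RNA Pol II occupancy in growing cells that lack the MAP kinase Hog1 was compared with that in wild type, in the absence of osmotic stress. Of 6334 entries in the ORF table, 4 that share a name and the 5% of the others with the lowest summed input were left out, so that 6013 ORFs were compared. Occupancy was measured by ChIP-seq of Rpb3, a subunit of RNA Pol II that was precipitated untagged with the antibody 1Y26. Each strain is represented by 1 library, so differences carry neither an error nor a p-value and describe these libraries alone. Both strains are W303. The Δhog1 strain carries a deletion of HOG1 replaced by HIS3, and the wild type carries an intact HOG1. Both cultures were grown at 30° in YEPD to an OD600 of 0.6 and mock-treated by addition of an equal volume of medium without KCl. The third unstressed Rpb3 library, of a Δsko1Δhot1 strain that carries HOG1 and lacks the transcription factors Sko1 and Hot1, served as a yardstick, as did the stressed Rpb3 library of each strain (0.4 M KCl, 5 min). The Δsko1Δhot1 strain in the study's strain list also carries an HA tag on HOG1 with HIS3 as its marker, LEU2 in place of SKO1 and URA3 in place of HOT1. Input and a mock IP were analysed for wild type only, so an effect of the Δhog1 chromatin preparation on these values cannot be told apart from an effect of the deletion.

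Hog1 is the MAP kinase at the end of the high-osmolarity glycerol (HOG) pathway of budding yeast. Under osmotic stress, the Sln1 and Sho1 branches of the pathway activate the MAP kinase kinase Pbs2, which phosphorylates Hog1, and Hog1 enters the nucleus and is recruited to stress genes by factors such as Sko1 and Hot1. Sko1 bound to its targets represses them with Tup1 and Cyc8 in the absence of stress. Most Hog1 is inactive in cells that grow in rich medium, so the comparison asks which genes depend on the kinase in basal growth.

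The HOG1 ORF held the least RNA Pol II of all 6013 ORFs in Δhog1. Its signal, a coverage scaled by the authors to the length of the ORF and the total of the library, was 18700 in wild type, 667 in Δhog1 and 19800 in Δsko1Δhot1. In KCl it was 20500, 1240 and 26300, so that the library labels hold at this locus in each of the 6 Rpb3 libraries. The log2 fold of Δhog1 over wild type, with 996 (0.1 times the median input) added to each value, was -3.57. HIS3, the marker gene, had a signal of 24800 in wild type and 12300 in Δhog1 (log2 fold -0.96). The marker loci LEU2 (39600 and 26900), TRP1 (17600 and 11900) and ADE2 (9380 and 7860) were within 2-fold. Of the genes with qPCR primers, ACT1 (39000 and 23300), POL1 (6020 and 6820) and MYO4 (6370 and 7680) were within 2-fold, as were GPD1, RTC3 and STL1. ADH1 (log2 fold -1.89), RHR2 (-1.76), TDH3 (-1.58), PDC1 (-1.52) and ILV5 (-1.23), which also have such primers, were at least 2-fold lower. HOT1, which is deleted only in the third strain, had a signal of 6350 in wild type, 5900 in Δhog1 and 569 in Δsko1Δhot1.

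Genes of mating type were read from the same values. STE2, the receptor for alpha factor, had a signal of 45000 in wild type and 36600 in Δhog1, and MFA2, an a-factor gene, 49000 and 32700. STE3, the receptor of alpha cells, had 2530 and 5130. The 2 lists overlapped in level, since the alpha-specific gene SAG1 had 7640 and 8140 and the a-specific gene ASG7 6410 and 5930. No a-specific gene of 7 and no alpha-specific gene of 4 differed 2-fold. The median log2 fold of a chromosome lay between -0.10 on chromosome 3 and 0.10 on chromosome 10, so no chromosome stood apart.

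The libraries differed in range, and this difference touches each fold given for them. The median ORF had a signal of 7340 in wild type, 7330 in Δhog1 and 8280 in Δsko1Δhot1. The 1st percentile was 1881 in wild type, 3811 in Δhog1 and 3284 in Δsko1Δhot1. The 99th percentile was 92616, 47592 and 67104. Signal was thus higher at the bottom and lower at the top in Δhog1, and Δsko1Δhot1 lay between the other strains. When the ORFs were ordered by their level in Δsko1Δhot1, which is on neither side of the fold, the median log2 fold went from 0.62 in the lowest of 10 equal bins to -0.78 in the highest. For Δsko1Δhot1 over wild type, where the ordering library is also the numerator, it went from 0.43 to -0.30.

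**Figure D1:**
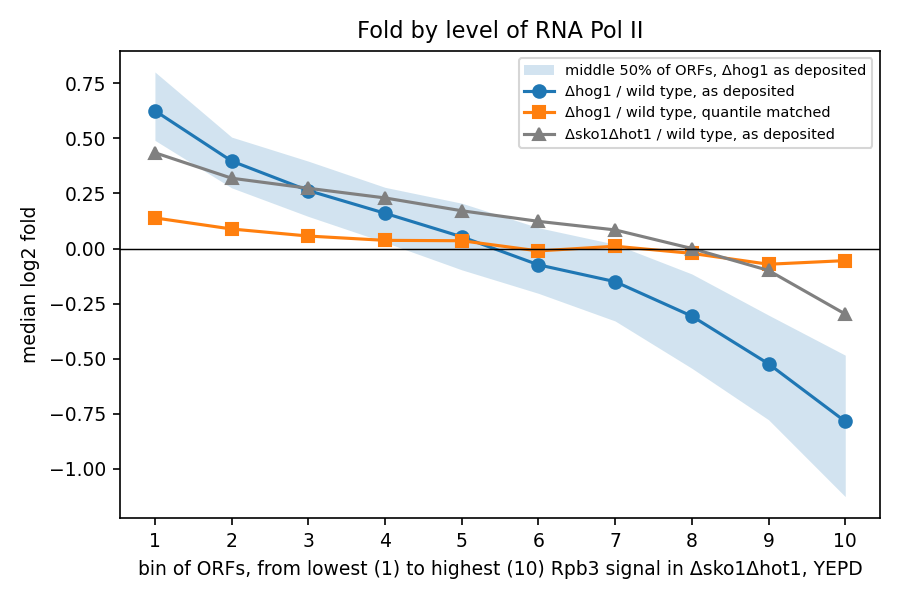
Median log2 fold (y axis) in 10 bins of ORFs ordered by Rpb3 signal in unstressed Δsko1Δhot1 (x axis), 601 or 602 ORFs in each. Blue circles are Δhog1 over wild type as deposited, with the middle 50% of ORFs shaded; orange squares are the same libraries after quantile matching, and grey triangles are Δsko1Δhot1 over wild type. The deposited fold falls from 0.62 to -0.78 across the bins and the matched fold stays between -0.07 and 0.14.

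Across ORFs, the Δhog1 library also followed the mock IP and input of wild type more closely than the other unstressed Rpb3 libraries did. The correlation of log2 signal with the mock IP was 0.51 for Δhog1, 0.18 for wild type and 0.24 for Δsko1Δhot1, over the same 6013 ORFs. That with input was 0.41, 0.25 and 0.28. The log2 fold also moved with the mock IP: its median was -0.54 in the lowest of 10 bins by mock IP signal, where 127 of 602 ORFs were at least 2-fold lower. It reached 0.18 in bin 7 and was 0.03 in the highest bin, where 51 of 602 were lower and 28 higher, so the relation was not one-way. The part of non-specific DNA in the differences was not tested, and 2 more scales are given beside the deposited one for this reason. Quantile matching gives the 2 libraries the same set of values, so that only the order of ORFs counts. A linear fit predicts log2 Δhog1 signal from log2 wild-type, mock IP and input signal over all ORFs and keeps the residual. The residual takes out what the mock IP and input share with the Δhog1 library, whatever its source. The slope was 0.51 on wild type, 0.69 on the mock IP and 0.061 on input.

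On the deposited scale, 76 ORFs (1.26% of 6013) were at least 2-fold higher in Δhog1 and 304 (5.06%) at least 2-fold lower. Quantile matching left 45 higher (0.748%) and 114 lower (1.9%), and 19 higher (0.316%) and 93 lower ORFs (1.55%) were past 2-fold on both scales. The fit gave 9 higher and 9 lower (0.15% each). With Δsko1Δhot1 in place of wild type, 12 were higher (0.2%) and 126 lower (2.1%), and 2 higher (0.0333%) and 110 lower ORFs (1.83%) were past 2-fold against both strains. As a yardstick, Δsko1Δhot1 differed from wild type 2-fold or more at 12 higher and 24 lower ORFs (0.2% and 0.399%), with an SD of the log2 fold of 0.30 against 0.53 for Δhog1. The 2 comparisons with Δhog1 share its library, and those with wild type share the wild-type library.

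**Figure D2:**
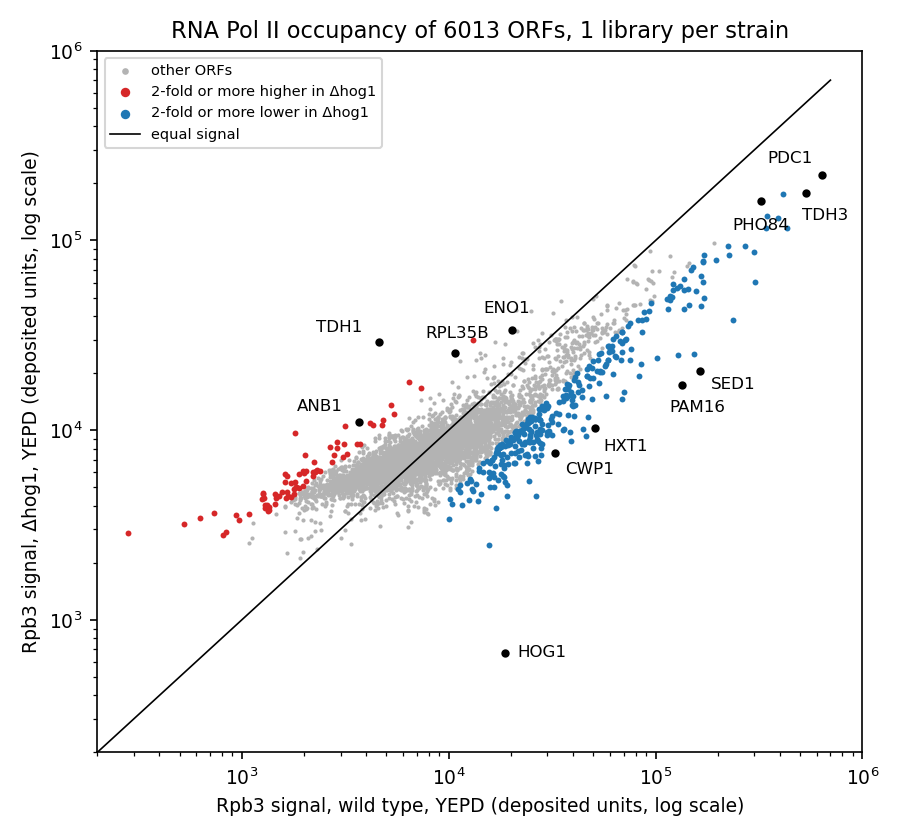
Rpb3 signal of 6013 ORFs in wild type (x axis) and Δhog1 (y axis), both unstressed, on log scales in deposited units. Red points are the 76 ORFs at least 2-fold higher in Δhog1, blue points the 304 at least 2-fold lower, grey points the others, and black points are named ORFs. The cloud is flatter than the line of equal signal, and HOG1 and TDH1 lie far from it.

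The ORFs that were higher in Δhog1 were mostly ORFs with little RNA Pol II in wild type. Their median signal was 1855 in wild type, 5545 in Δhog1 and 3835 in Δsko1Δhot1, and 74 of 76 lay below input in wild type, as did 4128 of all 6013 ORFs (68.7%). A low wild-type signal is part of what chose these ORFs. No gene name was given for 49 of the 76 (64.5%, against 15.2% of all ORFs). Meiotic genes, which are silent in growing haploid cells, show the same shift: 4 of 40 were at least 2-fold higher and none was lower. The median signal of the list was 2845 in wild type, 5065 in Δhog1 and 4320 in Δsko1Δhot1. Of all ORFs, 1.26% were higher and 5.06% lower. In the lowest bin by Δsko1Δhot1 level, with a median of 4450 in that library, 57 of 602 were higher and none lower. The meiotic count is thus near that of other ORFs at this level. IME1, the inducer of meiosis, went from 1470 to 4400 (log2 fold 1.13, and 0.24 in the fit). The median log2 fold of the meiotic list was 0.64 as deposited, 0.15 after quantile matching and 0.03 in the fit.

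Of the ORFs with a gene name, 7 were at least 2-fold higher both as deposited and after quantile matching. TDH1, a glyceraldehyde-3-phosphate dehydrogenase of glycolysis, stood furthest from the others. Its signal was 4600 in wild type, 29100 in Δhog1 and 4370 in Δsko1Δhot1. In KCl it was 10600 in wild type, 17600 in Δhog1 and 16100 in Δsko1Δhot1, so the Δhog1 libraries were the highest of the 6, the stressed one by a small margin. The ratio of Δhog1 to wild type was 6.33, and the log2 fold was 2.43 as deposited, 2.65 after quantile matching and 1.83 in the fit. TDH1 moved from rank 4824 to rank 181 among the ORFs. Its share of the summed signal of the TDH1, TDH2 and TDH3 genes was 0.73% in wild type, 10.8% in Δhog1 and 1.5% in Δsko1Δhot1. The 3 genes are near-identical in parts of their sequence, and only unique tags were counted, so the shares are uncertain.

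ENO1, an enolase gene that depends less on glucose than its partner ENO2, was higher after quantile matching. It had a signal of 20300 in wild type, 33900 in Δhog1 and 15300 in Δsko1Δhot1, while ENO2 had 391000, 131000 and 181000. The log2 fold of ENO1 was 0.71 as deposited, within 2-fold, 1.43 after quantile matching and 1.22 in the fit. In KCl, where ENO1 was at 51400 in wild type and 43100 in Δhog1, the difference had the opposite direction. ENO1 made up 4.94% of the signal of the pair in wild type and 20.6% in Δhog1, with the same uncertainty of near-identical genes. HSP82, the inducible Hsp90 chaperone gene, had 13200 in wild type, 19400 in Δhog1 and 9300 in Δsko1Δhot1 (log2 fold 0.52, and 1.09 after quantile matching). In KCl HSP82 was at 73400 in wild type and 46700 in Δhog1, again the opposite direction.

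The other named ORFs that were higher have no role in common that was among the lists. ANB1, the form of translation factor eIF5A made under low oxygen, had 3700 in wild type, 11100 in Δhog1 and 5060 in Δsko1Δhot1 (log2 fold 1.37, and 0.72 in the fit). NDJ1, a meiotic telomere protein, had 7360, 16600 and 7010, and in KCl 7410, 17900 and 6040. It was the only ORF at which both Δhog1 libraries were at least 2-fold above all 4 Rpb3 libraries of strains with HOG1. RPL35B, a ribosomal protein of the large subunit, had 10700 in wild type, 25600 in Δhog1 and 13100 in Δsko1Δhot1, and stayed at 25700 in stressed Δhog1. The rest were EAF6 (3110 and 8460), a subunit of the NuA4 acetyltransferase, SPC1 (4740 and 10700), a signal peptidase subunit, and HMRA1 (2020 and 7430), in a silent mating cassette whose sequence is repeated at MAT, so its value is uncertain.

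**Figure D3:**
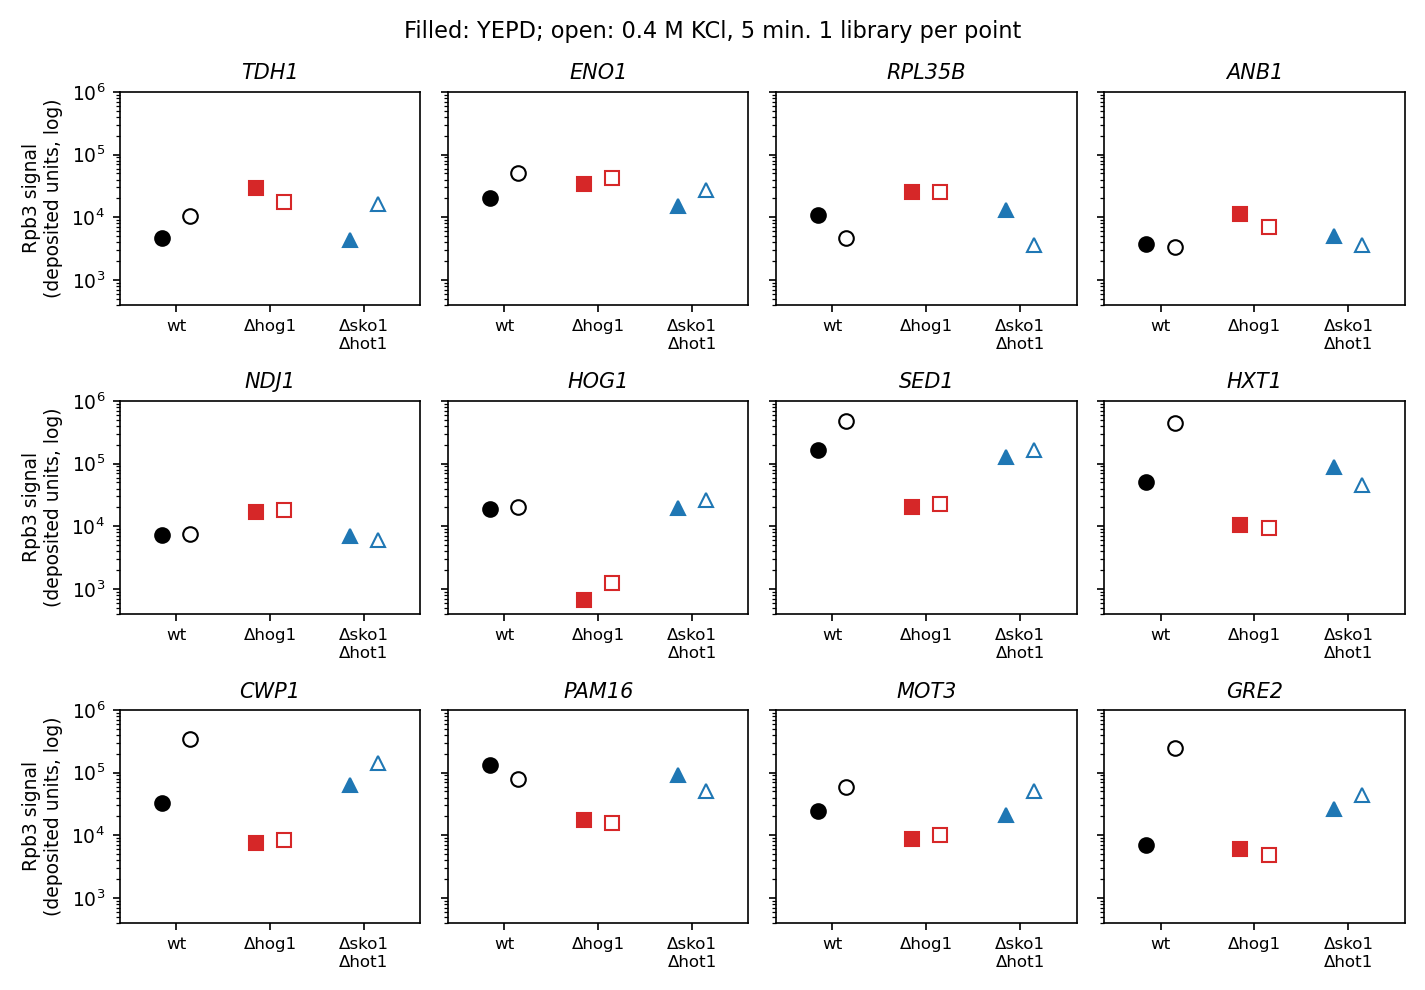
Rpb3 signal in deposited units (y axis, log scale) of 12 genes in wild type, Δhog1 and Δsko1Δhot1 (x axis), 1 library per point. Filled symbols are mock-treated cells and open symbols cells after 5 min in 0.4 M KCl. TDH1 is highest in unstressed Δhog1 (29100), and HOG1, SED1, HXT1, CWP1, PAM16 and MOT3 are lower in both Δhog1 libraries than in the other 4.

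ORFs that were lower in Δhog1 were strongly occupied in wild type, with a median signal of 29300 in wild type, 11300 in Δhog1 and 21800 in Δsko1Δhot1. Of the 304, 110 were also at least 2-fold lower than in Δsko1Δhot1. At 10 ORFs, both Δhog1 libraries were at least 2-fold below all 4 Rpb3 libraries of strains with HOG1. They were HOG1, SED1, HXT1, CWP1, PAM16, MOT3, ERC1, DMO1, YHR033W and YJR018W. Of these, MOT3, a transcription factor gene induced by osmotic stress, had 24400 in wild type and 8860 in Δhog1 without stress, and 57900 and 10000 in KCl.

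Among the lists, cell wall genes had the highest number of members lower (42.9% of the list, and 43.5% of the glycolysis list were). Of 42 measured, 18 were at least 2-fold lower (5.06% of all ORFs were) and none higher, with a median log2 fold of -0.78 as deposited, beside 0.02 for all ORFs. After quantile matching 4 were lower, with a median of -0.29, and in the fit 2, with a median of -0.08. Against Δsko1Δhot1, 10 were lower (2.1% of all ORFs were). The list's median signal was 24550 in wild type, 12600 in Δhog1 and 19100 in Δsko1Δhot1, so the list lies in the range where folds were below 0 for most ORFs.

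SED1, a major cell wall glycoprotein of growing and stationary cells, was at 164000 in wild type, 20600 in Δhog1 and 126000 in Δsko1Δhot1. Osmotic shock brought it to 480000 in wild type, 22300 in Δhog1 and 163000 in Δsko1Δhot1. The unstressed log2 fold was -2.93 as deposited, -2.09 after quantile matching and -1.02 in the fit, and SED1 went from rank 24 to rank 310. CWP1, a mannoprotein of the cell wall, was at 32500 in wild type, 7550 in Δhog1 and 62500 in Δsko1Δhot1, and at 340000, 8320 and 144000 in KCl. Its log2 fold was -1.97, -1.64 and -1.03 on the 3 scales. Both genes thus differed on all 3 scales, and their signal in Δhog1 hardly moved with stress.

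CWP2, the neighbour and relative of CWP1, behaved otherwise in stress. Its signal was 153000 in wild type, 25200 in Δhog1 and 94100 in Δsko1Δhot1, and 69300 in stressed Δhog1. The log2 fold was -2.56 as deposited, -1.73 after quantile matching and -0.10 in the fit, and its mock IP signal was 4610 against a median of 7690. HSP150, a secreted O-mannosylated protein, had 299000 in wild type and 86500 in Δhog1. Its log2 fold was -1.78 as deposited and -0.33 after quantile matching, but 0.45 in the fit. YPS3, an aspartyl protease of the cell surface, had 20900 and 6730, and was past 2-fold also after quantile matching (-1.28). UTH1, of the SUN family of wall proteins, had 129000 and 24800 (log2 fold -2.33), and NCW2, a wall protein of the chitin-glucan assembly, 68700 and 14600 (-2.16). In the fit the values of UTH1 and NCW2 were -0.37 and -0.43.

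Genes with Sko1, Hot1 and Hog1 in their regulatory regions were chosen by the study on its Hog1, Sko1 and Hot1 libraries and on earlier Hot1 binding data, and all 20 were at least 2-fold higher in stressed than in unstressed wild type. Unstressed, 3 of 20 were at least 2-fold lower in Δhog1 (5.06% of all ORFs were) and none higher, with a median log2 fold of -0.42 as deposited, -0.30 after quantile matching and -0.15 in the fit. It was -0.85 after background subtraction, which takes off a part of input from each Rpb3 library. On that scale 717 of the 6013 ORFs were at least 2-fold lower and 617 higher. Against Δsko1Δhot1, 7 of 20 were lower (2.1% of all ORFs were), with a median of -0.84. That strain lacks Sko1 and Hot1, whose binding helped to choose the list. Of the 7, GRE2, FMP43, GPD1 and ALD6 were within 2-fold of wild type in Δhog1 (log2 fold -0.17, -0.25, -0.52 and -0.98). The 3 that were at least 2-fold lower than in wild type were HXT1, RHR2 and NCE102.

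HXT1, a low-affinity glucose transporter, was at 51100 in wild type, 10300 in Δhog1 and 89200 in Δsko1Δhot1. In KCl it was at 452000, 9290 and 45300. Its log2 fold in unstressed cells was -2.21 as deposited, -1.68 after quantile matching and -1.38 in the fit, the lowest value of the fit after HOG1. The signal in Δhog1 was close to that in wild-type input (12200) and mock IP (12000). Of the 14 hexose transporter and glucose sensor ORFs measured, HXT1 alone was 2-fold lower, and HXT4 was higher after quantile matching (9340 and 14500, log2 fold 1.04). RHR2, a glycerol-3-phosphatase that makes glycerol, had 171000 in wild type, 49900 in Δhog1 and 118000 in Δsko1Δhot1 (log2 fold -1.76, and -0.76 after quantile matching). NCE102, of the eisosomes of the plasma membrane, had 54100, 20500 and 45100 (-1.36 and -0.67).

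GRE2, a reductase gene repressed by Sko1, shows a difference between the deletion strains. Its signal was 6950 in wild type, 6050 in Δhog1 and 26000 in Δsko1Δhot1, so the unstressed Δhog1 library held no more RNA Pol II at GRE2 than wild type did. GPD1, glycerol-3-phosphate dehydrogenase of the glycerol branch, had 10600, 7080 and 19900 (log2 fold -0.52 in Δhog1). STL1, the glycerol importer, had 5140, 9410 and 7350 (0.76). HSP12, a membrane heat shock protein, had 6920, 5560 and 9650 (-0.27). Each of these 4 was within 2-fold of wild type in Δhog1, with signals below that of input in both strains (input was 9570 to 11800).

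Of 15 sensors, adaptors and kinases of the pathway itself, HOG1 alone differed 2-fold. Of all ORFs, 5.06% were lower and 1.26% higher. Counts in lists this short, here and for the lists that follow, thus say little about the pathway. PBS2, which phosphorylates Hog1, had 10200 in wild type and 7790 in Δhog1, the osmosensor gene SLN1 6240 and 7140, and SHO1, of the other branch, 10200 and 9000. Msb2, a mucin-like sensor of the Sho1 branch, had its gene at 27700 and 15500 (log2 fold -0.80, and -0.12 after quantile matching). The log2 fold of the other members lay between -0.49 for CDC42, a GTPase of the Sho1 branch, and 0.39 for YPD1, the phosphorelay protein below Sln1. Of 8 phosphatases and kinases that act on or below Hog1, PTC2, a phosphatase that inactivates Hog1, was lower (24500 and 10100, log2 fold -1.20, and -0.69 after quantile matching). Of 11 regulators of osmostress genes, the corepressor gene TUP1 was lower (21500 and 9080, log2 fold -1.16, and -0.73 after quantile matching). Its partner CYC8 had 18600 and 9110 (-0.96).

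Lists of stress genes, which share some members with these targets, had medians nearer 0 as deposited. Of 36 targets of the general stress factors Msn2 and Msn4, SOD2, the mitochondrial superoxide dismutase, was lower (23100 and 9600, log2 fold -1.19) and none was higher, with a median of -0.10. After quantile matching the general stress list had a median of -0.22 and 1 member lower, GRE1, a hydrophilin (8310 and 4410, -1.03). After background subtraction the median was -1.03 for the general stress list, -0.48 for the trehalose and glycogen list (0.01 as deposited) and -0.55 for the glycerol list (-0.18 as deposited). On that scale 717 of all ORFs were at least 2-fold lower and 617 higher. Most trehalose and glycogen genes lay below input in both strains, such as TPS2 (6050 and 6860, input 9710) and PGM2 (5480 and 5490, input 9390). Folds of such ORFs after subtraction are uncertain. None of 18 trehalose and glycogen genes and none of 20 chaperone genes differed 2-fold as deposited. On the deposited scale 5.06% of all ORFs were lower and 1.26% higher, so counts in lists of this size say little. Of 16 glycerol genes 2 were lower, RHR2, given above as a target, and GPD2 (38300 and 17300, log2 fold -1.10, and -0.44 after quantile matching). When all ORFs were grouped by their response to KCl in Δsko1Δhot1, whose libraries are on neither side of the fold, the 117 ORFs that gained over 2 on the log2 scale there had a median log2 fold of -0.11 in unstressed Δhog1 as deposited and -0.14 after quantile matching, and the 4081 that changed by less than 0.5 on the log2 scale had 0.10 and 0.04.

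The most occupied ORFs, many of them for glycolysis, had less signal in Δhog1 as deposited. The highest 5 ORFs in wild type were PDC1, pyruvate decarboxylase (634000 in wild type and 220000 in Δhog1), TDH3, the main glyceraldehyde-3-phosphate dehydrogenase (533000 and 178000), ADH1, alcohol dehydrogenase (434000 and 116000), ILV5, of branched amino acid synthesis (411000 and 175000), and ENO2 (391000 and 131000). In Δhog1 they were PDC1, TDH3, ILV5, the phosphate transporter gene PHO84 (325000 and 162000) and the proton pump gene PMA1 (344000 and 135000). PDC1 and TDH3 kept ranks 1 and 2. Of 23 glycolysis and fermentation ORFs, 10 were lower and 1, TDH1, higher, with a median log2 fold of -0.75 as deposited. Of all ORFs, 5.06% were lower and 1.26% higher, but in the highest of the 10 bins by Δsko1Δhot1 level 203 of 602 were lower. After quantile matching the glycolysis median was 0.00, with 2 higher (TDH1 and ENO1) and none lower, beside 0.748% and 1.9% of all ORFs.

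Ribosomal protein genes changed side with the scale. Of 73 measured large-subunit ORFs, 11 were lower and 1, RPL35B, higher as deposited, with a median of -0.50. On this scale 5.06% of all ORFs were lower and 1.26% higher, and 203 of 602 were lower in the highest bin by Δsko1Δhot1 level. After quantile matching 7 large-subunit ORFs were higher (0.748% of all ORFs were) and none lower, with a median of 0.27. In the fit 2 were higher (RPL35B and RPL41A), beside 0.15% of all ORFs, with a median of 0.23. The 52 small-subunit ORFs had medians of -0.51, 0.24 and 0.26, with 6 lower as deposited and 3 higher after matching. RPL41A, which encodes a very short protein and has a near-identical copy, had 34800 in wild type, 47700 in Δhog1 and 33800 in Δsko1Δhot1. RPL36B, at the other end, had 166000, 45200 and 101000 (log2 fold -1.85, and -0.89 after quantile matching). Of the 68 ribosome biogenesis ORFs, 3 were lower as deposited: NSR1 (68100 and 23300) and NOP1 (52200 and 20400), both nucleolar proteins, and GAR1 (23100 and 10300), of the H/ACA snoRNPs. That share is no higher than the 5.06% of all ORFs. The medians of that list were -0.03 and 0.31. Histone ORFs had medians of -0.46 as deposited and 0.46 after quantile matching, with 1 of 11, HTA1 (171000 and 83700, log2 fold -1.02), lower as deposited.

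**Figure D4:**
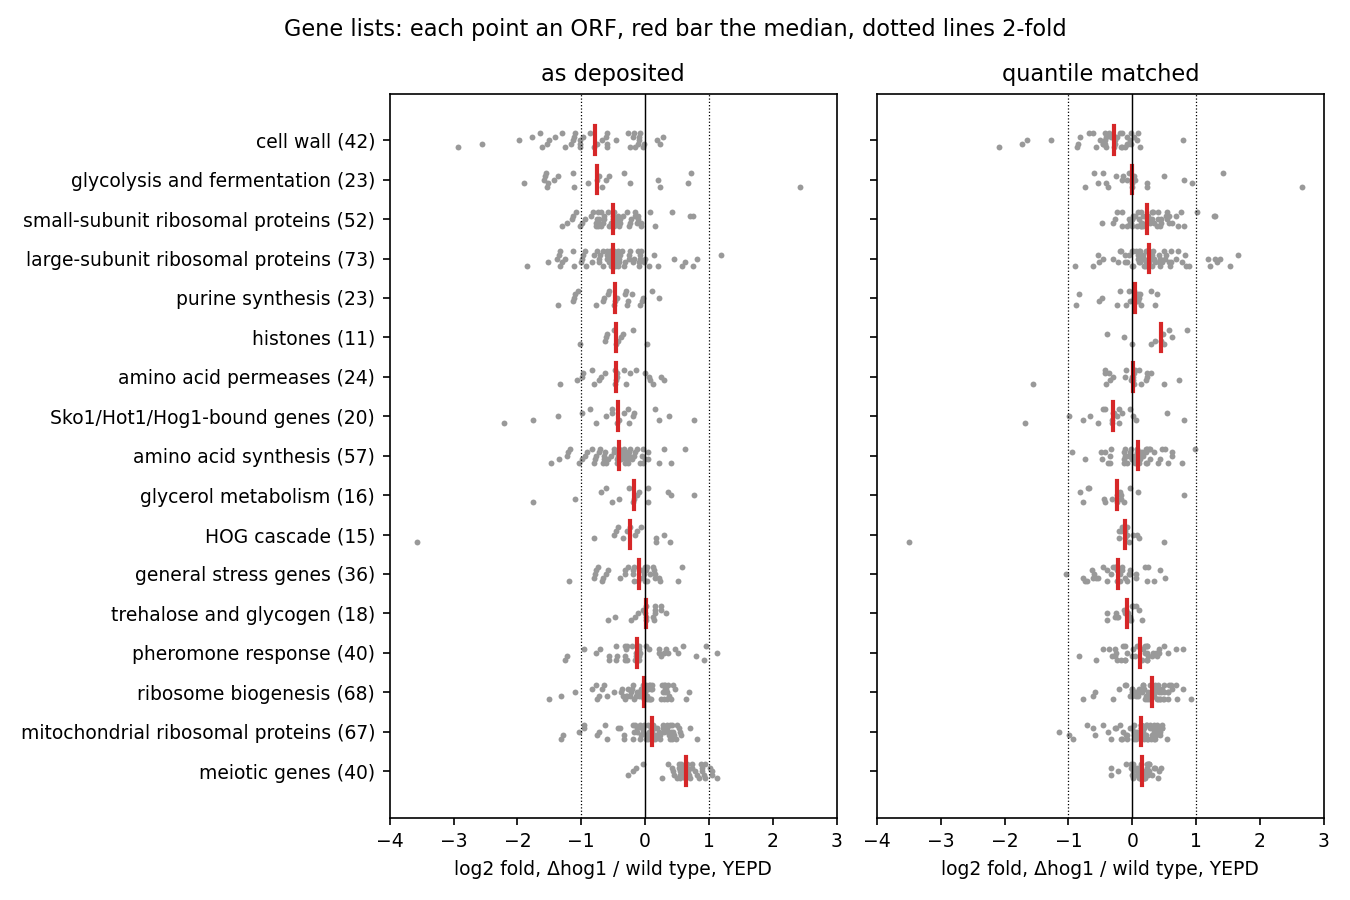
Log2 fold of Δhog1 over wild type in YEPD (x axis) for the measured members of 17 gene lists (rows, with the number of members), as deposited on the left and after quantile matching on the right. Points are ORFs, red bars medians and dotted lines 2-fold. The median of the cell wall list goes from -0.78 to -0.29, that of the glycolysis list from -0.75 to 0.00, and those of the ribosomal protein lists from about -0.50 to above 0.

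Biosynthetic and nutrient genes had fewer members past 2-fold after quantile matching than as deposited. Of 57 amino acid synthesis ORFs 6 were lower as deposited, with a median of -0.40 and 0.09 after quantile matching, when none was past 2-fold. GLY1, threonine aldolase (170000 and 60600, log2 fold -1.47), was the most changed and had -0.36 after matching. Of 23 purine ORFs 5 were lower, with medians of -0.48 and 0.04, while of 30 sulfur and methionine ORFs 2 were lower, CYS3 (44100 and 15000) and SAM1 (49600 and 18900), with medians of -0.04 and 0.14, near those of all ORFs (5.06% lower, medians 0.02 and 0.04). Phosphate genes had 4 of 24 lower. PHO4, the activator of the phosphate regulon, had 46000 in wild type, 9280 in Δhog1 and 24400 in Δsko1Δhot1, but 22200 in stressed Δhog1 against 17300 in stressed wild type. Its log2 fold was -2.19 as deposited, -1.74 after quantile matching and -0.18 in the fit, with a mock IP signal of 2870. Of 24 amino acid permeases 2 were lower, PUT4, the proline permease (10000 and 3390, log2 fold -1.33, and -1.55 after quantile matching), and TAT1 (59600 and 27900, -1.07). PUT4 had -0.17 in the fit and a mock IP signal of 2240.

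Hog1 is also known to hold back the pheromone and filamentous growth pathways, with which it shares upstream kinases. Of 40 pheromone response genes, SCW10, a wall glucanase (35600 and 14300), and DIG1, a repressor of Ste12 (21800 and 8720), were at least 2-fold lower in unstressed Δhog1, a share like the 5.06% of all ORFs. PRM6, a potassium transporter induced by pheromone, was higher (1520 and 4470, log2 fold 1.12, and 0.11 in the fit). After quantile matching no pheromone gene was past 2-fold and the median was 0.13. FUS3, the MAP kinase of the pheromone pathway, had 21100 in wild type and 10400 in Δhog1 without stress, and 14800 and 42900 in KCl. STE2 had 22000 and 93100 in KCl. For both genes the Δhog1 library was above wild type in KCl and not in its absence. Of 15 filamentous growth genes 3 were lower as deposited, HMS2 (44100 and 16300), SVS1 (42000 and 15800) and PHD1 (49500 and 21200), and none after quantile matching. Of all ORFs 5.06% were lower as deposited. The 3 genes lay in the highest of the 10 bins by Δsko1Δhot1 level, where 203 of 602 ORFs were lower.

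Some of the largest falls lay beside snoRNA or snRNA genes. PAM16, of the mitochondrial import motor, had 134000 in wild type, 17300 in Δhog1 and 91900 in Δsko1Δhot1, and 78000, 15600 and 51200 in KCl. Its log2 fold was -2.88 as deposited, -2.05 after quantile matching and -1.15 in the fit. In the R64 annotation its neighbour is the snoRNA gene SNR37. COQ21, beside the U2 snRNA gene LSR1, had 237000 in wild type, 37900 in Δhog1 and 133000 in Δsko1Δhot1, and DAS1, beside SNR128, 44700, 10100 and 32000. Signal from the neighbour and signal of the ORF cannot be told apart in values per ORF. Of 124 ORFs next to a snoRNA or snRNA gene, 15 (12.1%) were at least 2-fold lower, beside 256 of 5052 (5.07%) of the ORFs with no such gene or tRNA gene beside them. Of 437 ORFs next to a tRNA gene, 12 (2.75%) were lower and 11 (2.52%) higher, with a median log2 fold of 0.12. The ORFs next to snoRNA or snRNA genes also had the higher median signal in wild type (12100 against 7465). Their median log2 fold was -0.10 as deposited and 0.16 after quantile matching. After matching 5 of the 124 were at least 2-fold lower, beside 88 of the 5052 with neither kind of neighbour. Of all ORFs, 1.9% were lower and 0.748% higher on that scale. The ORFs beside snoRNA or snRNA genes that were at least 2-fold higher after matching were IRC13 beside SNR17A (log2 fold 1.74), RPL7B beside SNR59 (1.33), RPL33A beside SNR17B (1.21) and POP6 beside SNR46 (1.18). SPC25, of the kinetochore, had 26300 in wild type, 4510 in Δhog1 and 18600 in Δsko1Δhot1 (log2 fold -2.31, -2.28 after quantile matching and -0.53 in the fit), with a mock IP signal of 2310.

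The fit left 9 ORFs higher and 9 lower. The lower ones were HOG1, HXT1, PAM16, CWP1, SED1, SMT3, DEG1, YHR086W-A and TRP1. The last 4 had a deposited fold within 2-fold and a mock IP signal of 32400, 23800, 13900 and 23600, against a median of 7690. The higher ones were TDH1 (1.83), IRC13 (1.26), ENO1 (1.22), RPL41A (1.10), RPL35B (1.09) and 4 ORFs without a gene name. Of these 9, 6 were within 2-fold as deposited, and YLR120W-A, with a mock IP signal of 1240, had a deposited log2 fold of -0.20. IRC13, which is annotated as a dubious ORF, had 21200 in wild type and 42900 in Δhog1, but also 38900 in Δsko1Δhot1. TDH1 was therefore the only ORF at least 2-fold higher on all 3 scales and against both strains with HOG1. HOG1, HXT1, PAM16, CWP1 and SED1 were lower on all of them.

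Along the chromosomes, the median of 10 consecutive ORFs lay between -1.07 and 0.52 as deposited over 5514 windows, and between -0.23 and 0.26 in the fit. The lowest windows lay on the right arm of chromosome 3, between YCR042C and YCR059C, where the mock IP signal was also low (median 4300 to 4600) and the median in the fit was -0.16 to -0.10.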

How the data were processed

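Groups came from the sample labels. The deposited ORF table holds a coverage signal per ORF, which the authors named RPKM. They extended unique tags by the fragment length and scaled the sum to ORF length and library total. The submitters' processing notes name Bowtie and sacCer2, whereas the supplement names ELAND as the aligner. Versions and the number of reads of each Rpb3 library are not given in the sources used here, so depth is unknown and no interval for counting error is given. The promoter, downstream, Sko1 and Hot1 tables were not used.

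Log2 folds were computed with 996 added, which understates change at low signal. A difference was counted from 2-fold on. Of the 6013 ORFs, 5607 matched the R64 assembly of RefSeq by locus tag. That assembly gave gene names and the order of genes only. Members of the 41 gene lists and the lists themselves were chosen with earlier results of these data known. Genes were named by a rule. It took marker loci, HOG cascade genes, and ACT1, POL1 and MYO4 of the genes with qPCR primers. It took the 10 largest rises and falls past 2-fold on both the deposited and matched scales (7 rises met this). The rule also took the 5 highest ORFs of each library and the 4 most changed members of each list. Genes named beyond it (among them ENO1, HSP82, RPL41A, YPS3, GPD1, GRE2, HSP12, DAS1 and those given for the fit or for both Δhog1 libraries) were chosen after their values were seen, as was the fit on wild type, input and mock IP. For background subtraction, input times the median ratio of Rpb3 to input in the 20% of ORFs with the lowest ratio in Δsko1Δhot1 was taken off, values below 0 were set to 0 and the libraries rescaled to the same sum. Scripts were tested on simulated data. Python 3.11.15, numpy 2.4.6, pandas 2.3.3 and matplotlib 3.10.9 were used.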

Additional observations from a re-analysis of the deposited data

How the results depend on the processing

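No paired analysis was possible because the labels carry no replicate numbers and each condition has 1 library; for the same reason no library could be left out. The count of ORFs at least 2-fold higher in Δhog1 (76) went to 3 with a pseudocount of 0.5 times the median input and to 170 with 0.02 times, to 230 with no filter on input and to 41 with the 10% of lowest input left out. It was 45 after quantile matching, 617 after background subtraction, 12 with Δsko1Δhot1 in place of wild type, 9 in the fit, 541 at 1.5-fold and 3 at 3-fold. The count of lower ORFs (304) went to 182 with the larger pseudocount, 114 after quantile matching, 1267 with input subtracted, 717 after background subtraction, 126 against Δsko1Δhot1, 9 in the fit, 868 at 1.5-fold and 47 at 3-fold. Both counts stayed within 1.5 times under the other alternatives run.

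Among named genes lower by 2-fold as deposited, the direction turned at the most occupied ORFs and at others, of which some are given. After quantile matching the log2 fold of ILV5 was 0.088, of PHO84 0.38 and of PMA1 0.15. In the fit it was 0.30 for PDC1, 0.33 for TDH3, 0.17 for ADH1, 0.54 for ILV5, 0.35 for ENO2, 0.49 for PHO84 and 0.060 for PMA1. It was 0.47 for ILV5 against Δsko1Δhot1 and 0.10 for PHO84 after background subtraction. HTA1 had 0.30 after quantile matching and 0.56 in the fit, and in the fit GLY1 had 0.41 and HSP150 0.45. The cause was not tested. List medians moved by more than 0.30, the SD between the strains with HOG1, for 27 of 41 lists after background subtraction, 18 after quantile matching, 15 in the fit, 12 with input subtracted, 6 against Δsko1Δhot1, 2 with the 10% filter and 1 with no filter, and for none under the other pseudocounts or centring. All 16 chromosome medians moved by less under the 2 alternatives run. With depth unknown, ORFs near or below input cannot be ranked.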
